A study of Mus musculus with 4 samples.

Results

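The interferon-linked members of the PARP family and their partners were examined in T8 leukemia cells after forced re-expression of IRF4. The gene set was a list of 10 named genes: Parp8, Parp9, Parp10, Parp11, Parp12, Parp14, the ubiquitin ligase Dtx3l, the antiviral protein gene Zc3hav1, and, as a contrast from DNA repair, Parp1 and Parp2. All 10 were found among the 55359 genes of the count table, and 9 had enough reads to be tested. T8 is a cell line from the tumor of an Irf4-/- mouse with pre-B acute lymphoblastic leukemia, so that both groups share the Irf4-/- genotype and stand for 1 tumor. Cells received a retrovirus coding for GFP alone (EV-RV, 2 libraries) or for GFP plus IRF4 (IRF4-RV, 2 libraries), and RNA of the cells still viable was sequenced 24 h later. No source used here states whether GFP-positive cells were sorted. The culture and transduction fields of the labels name T11, a line from another tumor, whereas titles and tissue fields name T8, which is followed here.

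PARPs are enzymes that take NAD+ and attach its ADP-ribose part to proteins. Parp1 and Parp2 build long poly-ADP-ribose chains at DNA breaks, whereas most other members attach single ADP-ribose units or are catalytically inactive. Several of these other members are known as interferon-stimulated genes, which are transcribed after type I interferon signaling through the interferon-stimulated response element (ISRE), a binding site of IRF9-containing complexes. IRF4 belongs to the same family of transcription factors and binds ISREs alone or composite ETS-IRF sites together with PU.1 or SPIB.

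The libraries held 31230223 to 37817752 counts, so that 3 counts, taken as the detection floor, correspond to 0.0824 to 0.0951 CPM (a gene's count relative to the TMM-scaled library total). Irf4 gave 8070 and 7600 counts in the EV-RV libraries and 95578 and 90693 in the IRF4-RV libraries, 11.0-fold higher. The EV-RV vector codes for GFP alone, so that the Irf4 counts of its libraries are not from an IRF4 vector. In the IRF4-RV libraries, reads from the vector and from what remains of the disrupted locus are not separated. B-lineage markers summed to 3708 and 3842 CPM with EV-RV and to 2755 and 2717 CPM with IRF4-RV. Cd79a stood at 906.4 to 921.9 CPM in all libraries, the surrogate light chain genes Vpreb1 and Igll1 fell by 1.49 and 1.30 on the log2 scale, and Rag1 and Rag2 had at most 1 count in any library. Stromal cell markers set IRF4-RV replicate 2 apart: their sum was 221.1 CPM there against 47.7 and 88.9 CPM in the EV-RV libraries and 47.0 CPM in IRF4-RV replicate 1, with Col1a1 at 62.2 CPM. The macrophage list summed to 1.33 to 1.53 CPM with EV-RV and 7.31 to 8.47 CPM with IRF4-RV, almost all of it from Mrc1, while 9 of its 11 genes had at most 3 counts in every library. T and NK cell markers summed to 20.7 and 21.2 CPM with EV-RV and 13.6 and 14.0 CPM with IRF4-RV, mostly Trac, with 8 of 13 genes at or under 3 counts everywhere and 4 at 0. Granulocyte markers stayed at 0.0886 to 0.220 CPM in sum. Whether these marker reads came from other cells or from the leukemia cells was not tested. Any part of other cells in the changes given here was not tested either. In bulk RNA, a change in the number of cells of a type and a change of RNA per cell cannot be told apart.

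IRF4 re-expression raised 7 of the 9 tested genes and lowered none. These were all 7 tested interferon-linked genes, whereas Parp1 and Parp2 did not pass the test. No member was lower at an unadjusted p under 0.05 in edgeR or by DESeq2. Across the whole table the background was high: 29.7% of the 14637 tested genes passed an FDR of 0.1 in edgeR's quasi-likelihood test, 16.0% as higher and 13.7% as lower with IRF4-RV. Of these calls 53.8% were higher, and 37.8% were higher when libraries were scaled by their totals only, a setting under which the same count of 7 members passed. The median log2 fold change was 1.33 over the 7 interferon-linked genes and 0.83 over the 9 tested members, beside 0.01 over all genes. The EV-RV and IRF4-RV libraries did not overlap for 8 of the 9 members, but this held for 61.3% of all tested genes.

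**Figure D1:**
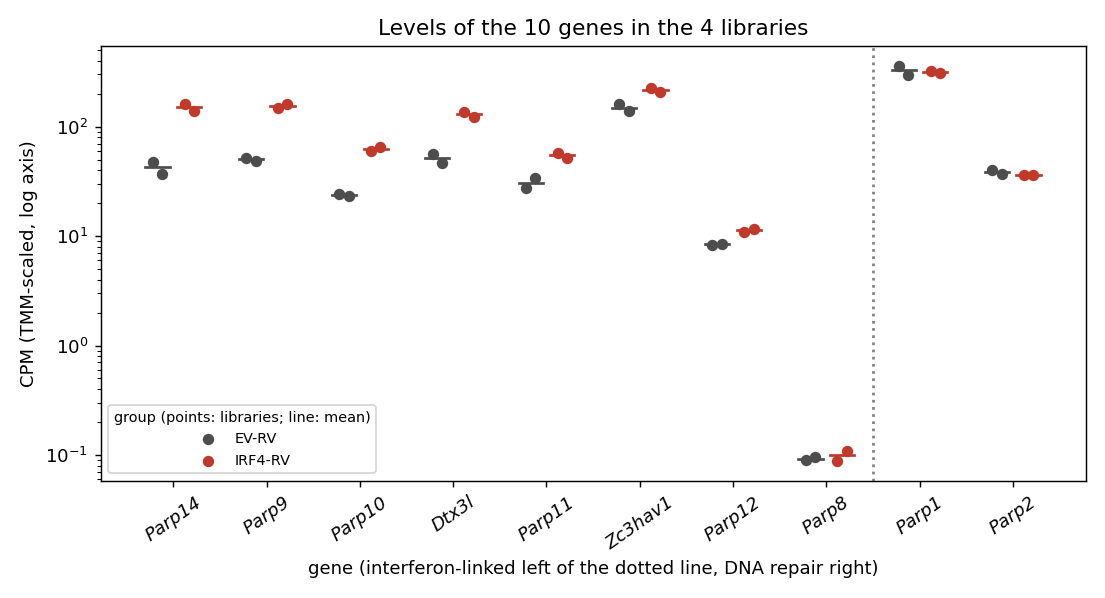
CPM (log axis) of the 10 genes in each of the 4 libraries, EV-RV in grey and IRF4-RV in red, with 1 point per library and a line at the group mean. From Parp14 to Parp12 all red points lie above all grey points, Parp8 lies near 0.1 CPM in every library, and the points of Parp1 overlap between groups.

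The changes of Parp14 and Parp9 were the largest of the set, and both genes lie in a group of neighbors on chromosome 16 that also holds Dtx3l. PARP14 attaches single ADP-ribose units and is known from STAT6 signaling in B cells. Its gene lies on the minus strand at chr16:35832874-35871544 (GRCm38). Parp14 stood at 47.9 and 36.8 CPM in the EV-RV libraries and at 161.5 and 139.1 CPM in the IRF4-RV libraries. Both IRF4-RV values thus lay far above both EV-RV values, and the change of 3.55-fold (log2 1.83, 95% interval 1.51 to 2.14, edgeR adjusted p = 7.98e-05) exceeded that of 98.0% of all tested genes.

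PARP9, a catalytically weak PARP with macrodomains that bind ADP-ribose, works in a complex with the E3 ubiquitin ligase DTX3L. Parp9 (chr16:35938470-35972605, plus strand) was measured at 52.1 and 48.0 CPM with EV-RV and at 147.4 and 159.6 CPM with IRF4-RV. The replicates lay close together and the groups well apart, a rise of 3.07-fold (log2 1.62 ± 0.09 SE, edgeR adjusted p = 1.89e-05). Dtx3l (chr16:35926511-35939151, minus strand) had 56.0 and 46.4 CPM with EV-RV against 136.3 and 121.7 CPM with IRF4-RV. This was a 2.52-fold rise (log2 1.33 ± 0.11 SE, edgeR adjusted p = 1.49e-04) with no overlap of the groups. Parp9 and Dtx3l are annotated head to head and overlap over 682 bp. They share 458 bp of exon, which is 9.40% of the merged exon length of Parp9 and 8.0% of that of Dtx3l. Whether the counting used strand is not given in the sources used here, and reads from the shared stretch cannot be told apart without it. Per length, the ratio of Parp9 to Dtx3l was 1.09 and 1.21 in the EV-RV libraries and 1.27 and 1.54 in the IRF4-RV libraries.

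The genes on either side of this group did not pass the test. Hspbap1, 4396 bp from Parp14, had 7.85 and 7.58 CPM with EV-RV and 7.06 and 6.51 CPM with IRF4-RV (log2 fold change -0.19, 95% interval -0.49 to 0.12). Kpna1, which codes for a nuclear import receptor and lies 6144 bp beyond Parp9, had 89.8 and 95.2 CPM against 80.4 and 84.9 CPM (log2 fold change -0.16, 95% interval -0.35 to 0.02). Values of both were slightly lower with IRF4-RV, within intervals that include 0. With libraries scaled by their totals only, Kpna1 passed as lower (log2 -0.25, edgeR adjusted p = 0.0407).

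**Figure D2:**
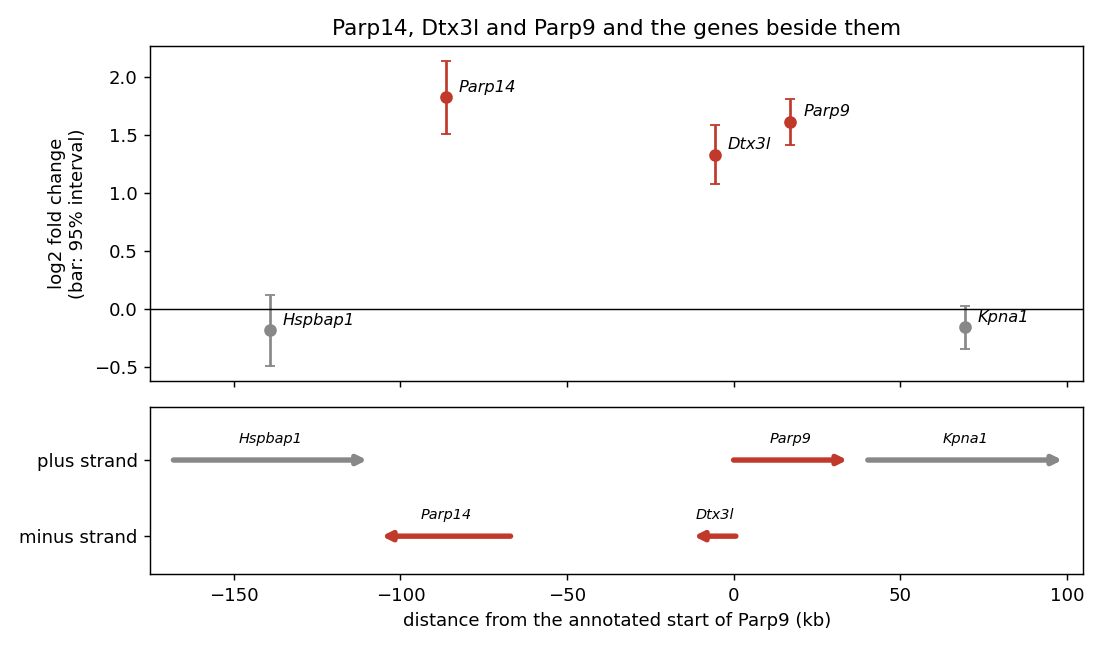
Top, log2 fold change of IRF4-RV over EV-RV with its 95% confidence interval (bar) for the 5 genes around Parp9, drawn at the middle of each gene. Bottom, the same genes as arrows on their strands by distance in kb from the annotated start of Parp9. Parp14, Dtx3l and Parp9 (red, passed the test) lie between 1.33 and 1.83, and the flanking Hspbap1 and Kpna1 (grey) lie between -0.19 and -0.16.

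Sequence around the transcription starts was read for the members that RefSeq windows (GRCm38.p6, 250 bases before to 50 bases after the start) cover, which were 7 of 10, without Parp9, Parp10 and Parp14. Both strands were searched for an ISRE core (GAAANNGAA), an ETS-IRF core (GGAANNGAA) and the STAT element GAS (TTCNNNGAA). These letters occurred in 8.56%, 8.24% and 8.30% of all 32851 windows, so that each is common by itself. Matches were found in windows of 2 members only, Parp11 and Dtx3l, and these windows are shown with that of Parp1 as a contrast without a match. Capitals mark the matches.
Parp11 (chr6:127446590-127446889, plus strand): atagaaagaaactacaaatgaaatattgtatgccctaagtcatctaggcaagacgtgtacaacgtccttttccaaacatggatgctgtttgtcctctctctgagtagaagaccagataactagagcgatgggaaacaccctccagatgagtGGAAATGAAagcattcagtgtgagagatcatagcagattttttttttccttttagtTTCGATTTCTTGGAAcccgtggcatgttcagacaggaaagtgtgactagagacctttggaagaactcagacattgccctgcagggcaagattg
Dtx3l (chr16:35938978-35939277, minus strand): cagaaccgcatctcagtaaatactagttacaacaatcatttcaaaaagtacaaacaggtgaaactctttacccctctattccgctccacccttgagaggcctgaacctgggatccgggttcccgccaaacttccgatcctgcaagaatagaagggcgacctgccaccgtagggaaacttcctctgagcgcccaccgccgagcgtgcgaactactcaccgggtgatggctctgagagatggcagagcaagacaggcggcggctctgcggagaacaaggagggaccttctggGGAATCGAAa
Parp1 (chr1:180568641-180568940, plus strand): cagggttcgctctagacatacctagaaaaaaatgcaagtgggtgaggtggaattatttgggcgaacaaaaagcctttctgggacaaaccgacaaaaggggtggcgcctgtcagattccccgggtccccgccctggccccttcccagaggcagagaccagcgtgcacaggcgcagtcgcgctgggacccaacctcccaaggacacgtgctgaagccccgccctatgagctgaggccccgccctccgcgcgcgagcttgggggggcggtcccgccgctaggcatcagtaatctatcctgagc
In the Parp11 window, the ETS-IRF core GGAAATGAA began 99 bases before the start. The ISRE core, read on the opposite strand as TTCGATTTC, began 43 bases before it and overlapped the GAS match TTCTTGGAA, which began 37 bases before it. The Dtx3l window held the ETS-IRF core GGAATCGAA from base 41 after the RefSeq start, counting that start as 1. The GENCODE coordinates given above place the 5' end of Dtx3l, at 35939151, upstream of this RefSeq start. The second window of Parp11, and the windows of Parp1, Parp2, Parp8, Parp12 and Zc3hav1, held none of the 3 motifs. A match of letters is a description of the sequence and no evidence of binding.

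Parp10, Parp11 and Parp12 code for enzymes that attach single ADP-ribose units, and Parp12 also carries zinc fingers that bind RNA. Parp10 (chr15:76231174-76243441, minus strand) had 24.4 and 23.3 CPM with EV-RV and 59.8 and 64.6 CPM with IRF4-RV. All IRF4-RV values were higher, and the 2.60-fold rise (log2 1.38 ± 0.09 SE) had an edgeR adjusted p of 4.40e-05. Parp10 shares 205 bp of exon, 4.80% of its length, with Plec on the same strand, and Plec itself had 310 to 404 counts in the 4 libraries and did not pass the test. Parp11 (chr6:127446840-127494261, plus strand), a gene required for the shaping of sperm heads, had 27.7 and 33.6 CPM with EV-RV and 56.9 and 52.1 CPM with IRF4-RV. The rise was 1.78-fold (log2 0.83, 95% interval 0.57 to 1.09, edgeR adjusted p = 0.00177), with the spread in either group smaller than the gap between them.

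Parp12 (chr6:39086410-39118349, minus strand) showed the smallest change among the genes that passed. It had 8.21 and 8.53 CPM with EV-RV and 10.8 and 11.7 CPM with IRF4-RV. The groups did not overlap, and the 1.34-fold difference (log2 0.43, 95% interval 0.15 to 0.70) had an edgeR adjusted p of 0.0384. This call was lost with DESeq2 (adjusted p = 0.137), without EV-RV replicate 1 (log2 0.39, edgeR adjusted p = 0.139) and without IRF4-RV replicate 2 (log2 0.37, edgeR adjusted p = 0.151). Parp8 (chr13:116854820-117025537, minus strand) had 3 counts in each library but IRF4-RV replicate 2, which had 4. It stayed at about the detection floor in all libraries, was not tested, and a difference was not detectable at this depth.

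**Figure D3:**
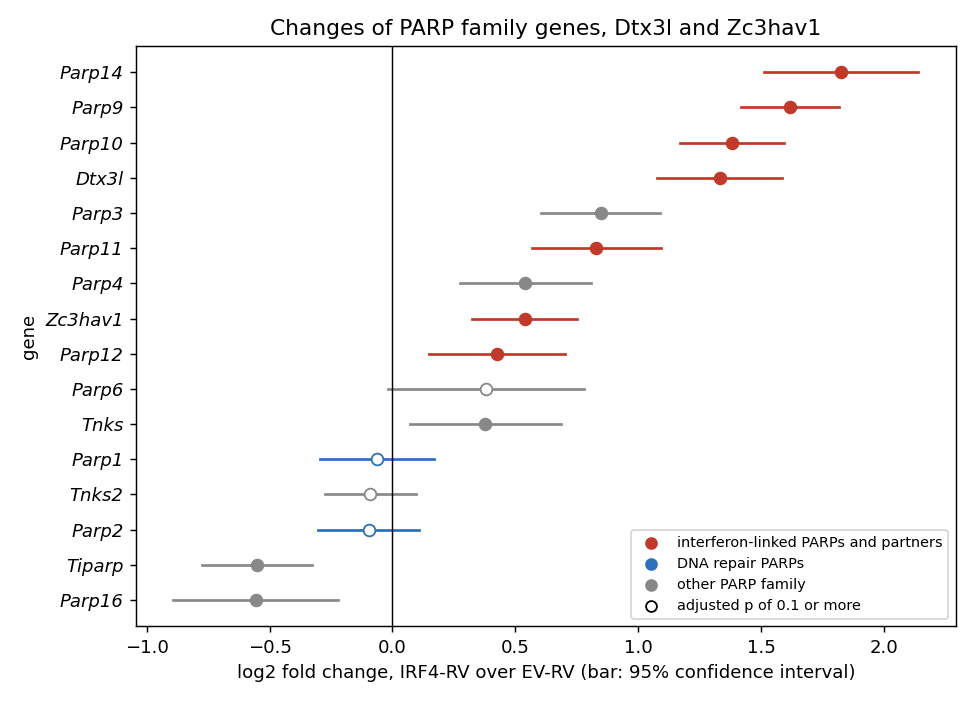
Log2 fold change of IRF4-RV over EV-RV with its 95% confidence interval for the 9 tested members (red, interferon-linked genes; blue, Parp1 and Parp2) and the other 7 PARP family genes (grey), with open circles for an adjusted p of 0.1 or more. The red points run from 0.43 (Parp12) to 1.83 (Parp14), and both blue intervals include 0.

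Zc3hav1 codes for ZAP (PARP13), which lacks ADP-ribose transfer activity and binds CpG-rich viral RNA. The gene lies on chromosome 6 (chr6:38305286-38354603, minus strand), 731806 bp from Parp12. It was the most abundant interferon-linked member in the EV-RV group, with 159.5 and 138.3 CPM, and reached 225.1 and 207.7 CPM with IRF4-RV. Both IRF4-RV values exceeded both EV-RV values, a rise of 1.45-fold (log2 0.54 ± 0.09 SE, edgeR adjusted p = 0.00492). Of 5 genes of a list of ZAP cofactors and relatives, 3 rose and 1 fell, 80.0% of the list beside 29.7% of all genes. The median log2 fold change of these 5 genes was 0.35. Trim25, the E3 ligase that ZAP needs for its antiviral activity, was the strongest of them, from 126.9 and 117.4 CPM to 298.9 and 277.6 CPM (log2 1.24, edgeR adjusted p = 4.23e-05). Khnyn, an endonuclease that acts with ZAP, rose by 0.42 on the log2 scale (edgeR adjusted p = 0.0390). Rnf135, a relative of TRIM25 that modifies RIG-I, rose by 0.35 (edgeR adjusted p = 0.0842). The call of Khnyn was lost with library totals (edgeR adjusted p = 0.122), without EV-RV replicate 2 (edgeR adjusted p = 0.162) and without IRF4-RV replicate 1 (edgeR adjusted p = 0.148). That of Rnf135 was lost with DESeq2 (adjusted p = 0.230), library totals (edgeR adjusted p = 0.191) and all genes of at least 1 count (edgeR adjusted p = 0.102). It was also lost without EV-RV replicate 1, EV-RV replicate 2 or IRF4-RV replicate 2 (edgeR adjusted p = 0.177, 0.211 and 0.403, log2 0.24 in the last). N4bp1, an RNase related to KHNYN, had a log2 fold change of -0.05 and did not pass. Zc3hav1l, a shorter relative 6026 bp from Zc3hav1, went the other way, from 9.83 and 8.88 CPM to 5.08 and 5.96 CPM (log2 -0.76, edgeR adjusted p = 0.00803). The 2 neighbors thus had changes of opposite sign.

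DTX3L belongs to the Deltex family of E3 ligases, and of its other 4 genes 2 rose. Dtx4 went from 10.5 and 11.2 CPM to 27.5 and 22.4 CPM (log2 1.20, edgeR adjusted p = 4.98e-04), and Dtx2 rose by 0.46 on the log2 scale (edgeR adjusted p = 0.00517). Dtx3 had a log2 fold change of 0.49 and an edgeR adjusted p of 0.135 at 3.49 to 6.14 CPM. It passed without EV-RV replicate 1 (log2 0.79, edgeR adjusted p = 0.0353) and with all genes of at least 1 count (edgeR adjusted p = 0.0822), and stood at 0.24 without EV-RV replicate 2. Dtx1, a Notch modulator, had 24 to 48 counts in the 4 libraries, and its groups overlapped.

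The DNA repair PARPs showed no change that passed the test. Parp1 (chr1:180568924-180601254, plus strand) had 359.8 and 295.8 CPM with EV-RV and 319.3 and 308.0 CPM with IRF4-RV. Both IRF4-RV values lay between those of EV-RV, with a log2 fold change of -0.06 (95% interval -0.30 to 0.17, edgeR adjusted p = 0.704). Parp2 (chr14:50807841-50821301, plus strand) had 40.0 and 36.8 CPM against 36.1 and 35.7 CPM, both slightly lower with IRF4-RV (log2 -0.10, 95% interval -0.30 to 0.11, edgeR adjusted p = 0.490). The upper ends of both intervals lay below the 0.54 of Zc3hav1 and the 0.43 of Parp12, the smallest change among members that passed. That of Parp1, 0.17, still lay within the 95% interval of Parp12, 0.15 to 0.70. The lower ends of the Parp1 and Parp2 intervals leave room for a fall by 0.30 on the log2 scale.

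Genes that act with PARP1 and PARP2 in single-strand break repair gave 0 rises and 4 falls among 13 tested, with a median log2 fold change of -0.10. The share of the list that passed, 30.8%, was close to the 29.7% of all genes, so that its count does not set it apart. At an unadjusted p under 0.05, and by DESeq2, no gene of this list was higher either. Apex1, the main abasic-site endonuclease, fell from 79.1 and 89.1 CPM to 51.0 and 58.2 CPM (log2 -0.62, edgeR adjusted p = 0.00379). Chd1l, a chromatin remodeler activated by poly-ADP-ribose, had a log2 fold change of -0.34 (edgeR adjusted p = 0.0301). Lig3, the DNA ligase that partners XRCC1, stood at -0.27 (edgeR adjusted p = 0.0453), and Timeless, a replication fork protein that binds PARP1, at -0.23 (edgeR adjusted p = 0.0812). The weaker of these calls depended on single libraries: 2 genes of the list passed without EV-RV replicate 1 or without IRF4-RV replicate 1, and only Apex1 without IRF4-RV replicate 2. That of Timeless was lost in each of these fits, without EV-RV replicate 2 (edgeR adjusted p = 0.126), with all genes of at least 1 count (edgeR adjusted p = 0.153) and with DESeq2 (adjusted p = 0.137). Hpf1, the cofactor that directs PARP1 and PARP2 to serine, had 89.7 and 93.4 CPM against 77.5 and 82.8 CPM (log2 -0.19, edgeR adjusted p = 0.127). It passed as lower with library totals (log2 -0.28, edgeR adjusted p = 0.0289) and with a stricter filter on low counts (edgeR adjusted p = 0.0946). Xrcc1, the scaffold of this pathway, was at 46.4 to 49.3 CPM in all 4 libraries (log2 0.02).

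Per kilobase of merged exons, the order of the members differed between the groups. In EV-RV cells Parp1 led with 61.9 ± 8.55 CPM per kb (SD, n = 2), followed by Zc3hav1 with 22.9 ± 2.29. Parp2 (10.6 ± 0.61) and Parp9 (10.3 ± 0.60) overlapped in their ranges, ahead of Dtx3l (8.95 ± 1.18) and Parp10 (5.58 ± 0.18). Parp14 and Parp11, at 4.55 and 4.36 CPM per kb, did not differ beyond their spread, and Parp12 (2.10) and Parp8 (0.0104) came last. In IRF4-RV cells Parp1 still led with 59.3 ± 1.51 CPM per kb, and Zc3hav1 (33.2 ± 1.89) and Parp9 (31.5 ± 1.76) overlapped behind it. Dtx3l followed at 22.5, Parp14 and Parp10 overlapped at 16.2 and 14.6, and Parp2 came only after them at 9.89, ahead of Parp11 at 7.76 and Parp12 at 2.81. Parp1 made up 47.2% of the summed level per length of the 10 genes with EV-RV and 30.0% with IRF4-RV. The 8 interferon-linked genes summed to 0.783 and 0.841 times the level of Parp1 plus Parp2 in the EV-RV libraries and to 1.86 and 1.86 times in the IRF4-RV libraries. The groups did not overlap in this ratio, but 2 against 2 libraries cannot give an exact two-sided permutation p below 0.333.

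**Figure D4:**
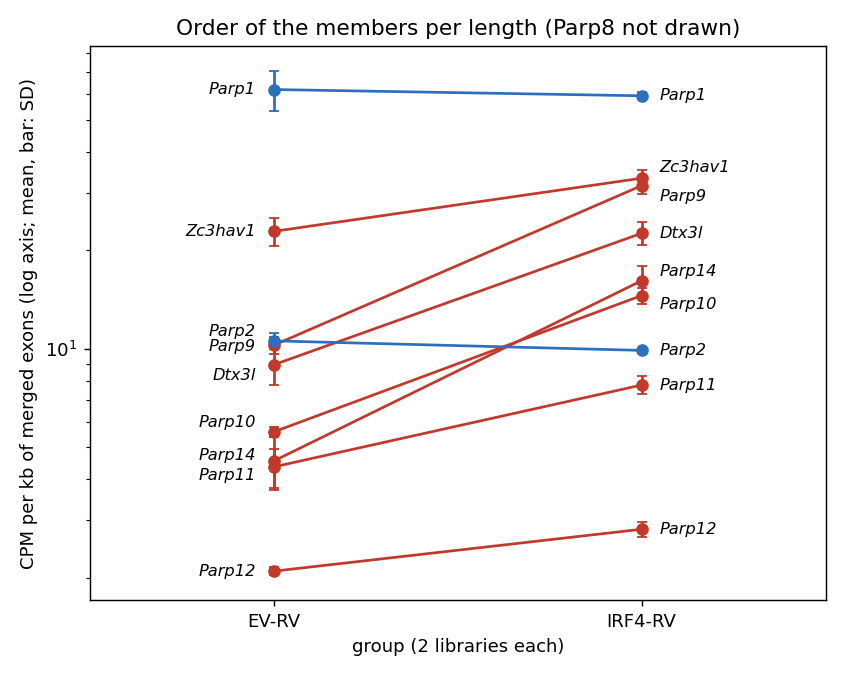
Mean CPM per kb of merged exons (log axis) of 9 members in the EV-RV and IRF4-RV groups, with bars for the SD of 2 libraries, in red for interferon-linked genes and in blue for Parp1 and Parp2. All red lines rise, and those of Parp9, Dtx3l, Parp10 and Parp14 cross the nearly level line of Parp2, which holds rank 3 at 10.6 with EV-RV and rank 7 at 9.89 with IRF4-RV.

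The 7 other PARP family genes moved in both directions, with 3 higher, 2 lower and a median log2 fold change of 0.38. Of this list 71.4% passed, beside 29.7% of all genes. Parp3, which acts at DNA double-strand breaks, rose from 9.92 and 9.67 CPM to 17.9 and 17.4 CPM (log2 0.85, edgeR adjusted p = 0.00108). Parp4, the vault-particle PARP, rose by 0.54 on the log2 scale (edgeR adjusted p = 0.0125). The remaining gene that passed as higher was the tankyrase gene Tnks (log2 0.38, edgeR adjusted p = 0.0814), named after its values were seen. That call was lost with library totals (edgeR adjusted p = 0.213), without EV-RV replicate 2 (log2 0.27, edgeR adjusted p = 0.281) and without IRF4-RV replicate 1 (log2 0.19, edgeR adjusted p = 0.443). Tiparp, a target gene of the aryl hydrocarbon receptor, fell from 21.1 and 21.9 CPM to 14.5 and 14.9 CPM (log2 -0.55, edgeR adjusted p = 0.00557). Parp16, an endoplasmic reticulum protein, had 8.99 and 8.88 CPM against 5.49 and 6.65 CPM (log2 -0.56, edgeR adjusted p = 0.0286), a call that was lost without IRF4-RV replicate 1 (edgeR adjusted p = 0.112), when 3 genes of the list passed.

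The enzymes that remove or read ADP-ribose gave no rise that passed the test among 7 tested genes, 2 falls and a median log2 fold change of -0.08. The share that passed, 28.6%, was again close to the 29.7% of all genes, and none was higher at an unadjusted edgeR p under 0.05 or by DESeq2. Adprhl2, the hydrolase that takes ADP-ribose off serine, fell from 53.0 and 57.9 CPM to 39.0 and 44.8 CPM (log2 -0.40, edgeR adjusted p = 0.0249). Macrod1, a mitochondrial macrodomain hydrolase, was called at -0.26 (edgeR adjusted p = 0.0922), a call that was lost with DESeq2 (adjusted p = 0.247), with all genes of at least 1 count (edgeR adjusted p = 0.192) and whenever a single library was left out. Without IRF4-RV replicate 1, Adprhl2 did not pass either (edgeR adjusted p = 0.114). Parg, the main poly-ADP-ribose glycohydrolase, had 36.2 to 45.1 CPM over the 4 libraries, its groups overlapped, and its log2 fold change was -0.09 (edgeR adjusted p = 0.636).

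The interferon pathway gives the setting of these values. Of 18 genes of the signaling chain from receptor to transcription factor, 11 rose and 1 fell, with a median log2 fold change of 0.51. The share that passed was 66.7%, beside 29.7% of all genes. Irf9, the DNA-binding subunit of the complex at ISREs, went from 19.7 and 21.3 CPM to 70.1 and 64.6 CPM, a 3.29-fold rise (edgeR adjusted p = 2.27e-05). Stat2 rose 3.69-fold, Irf7 3.82-fold and Irf1 2.61-fold. Usp18, a brake on the type I interferon receptor, had the largest change of the chain, from 1.47 and 1.62 CPM to 67.2 and 83.0 CPM (log2 5.60, edgeR adjusted p = 1.38e-06). The gene that fell was Irf8 (log2 -0.32), which was named after its values were seen and did not pass without IRF4-RV replicate 2 (edgeR adjusted p = 0.134). Among 26 classical interferon-stimulated genes 25 rose, with a median log2 fold change of 2.15. This is 96.15% of the list, beside 29.7% of all genes that passed. Isg15, a ubiquitin-like modifier, went from 53 and 75 counts to 1923 and 2300 counts with IRF4-RV. Rsad2, the antiviral enzyme viperin, had 7 and 5 counts against 870 and 862. Ifit1 (3 and 0 counts against 92 and 221) and Mx1 (0 and 1 counts against 47 and 33), both antiviral effectors, were at the floor in the EV-RV libraries, and no fold is given for them. The log2 changes of the 7 interferon-linked members, 0.43 to 1.83, all lay below the median of these classical genes, whose lowest value was 0.95 for Ddx60, the gene of the list that did not pass (edgeR adjusted p = 0.146; 0.0937 without IRF4-RV replicate 1).

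**Figure D5:**
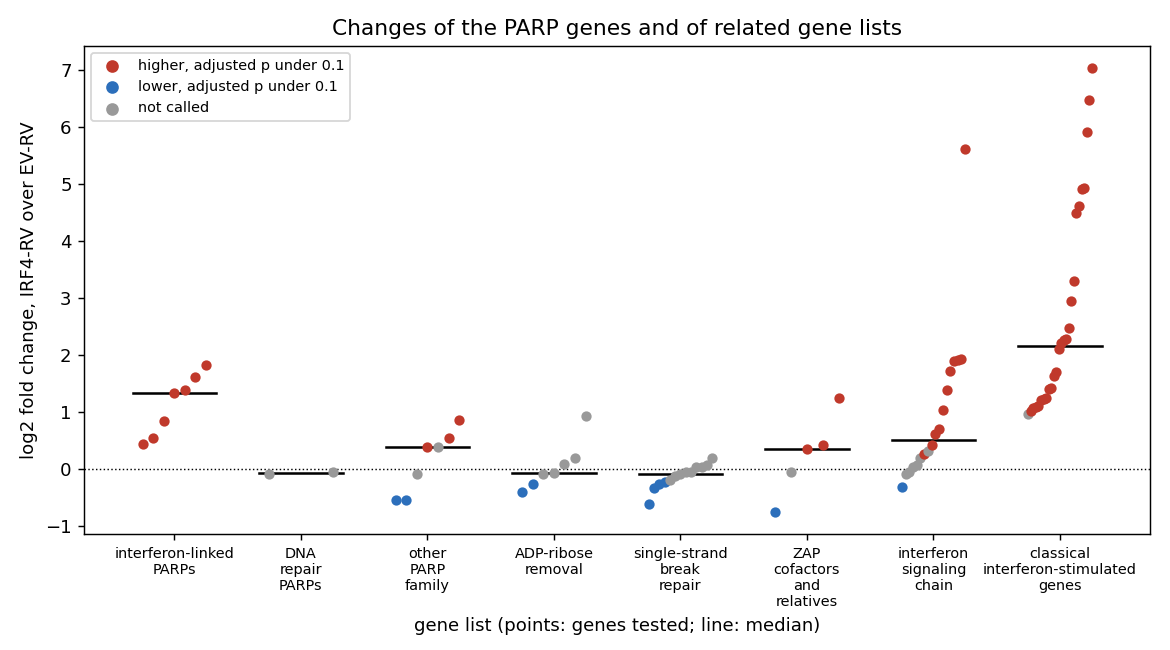
Log2 fold change of IRF4-RV over EV-RV for each tested gene of 8 lists, with 1 point per gene in red (passed as higher), blue (passed as lower) or grey (not passed) and a line at the list's median. The medians are 1.33 for the interferon-linked genes and 2.15 for the classical interferon-stimulated genes, and those of DNA repair PARPs, ADP-ribose removal and single-strand break repair lie between -0.10 and -0.08.

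The 6 members with the larger changes stayed higher with any single library left out. Leaving out each library in turn gave log2 fold changes of 1.65 to 2.02 for Parp14, 1.56 to 1.67 for Parp9, 1.33 to 1.42 for Parp10, 1.21 to 1.47 for Dtx3l, 0.69 to 0.98 for Parp11 and 0.44 to 0.64 for Zc3hav1. In these fits the lone library of a group is assumed to vary like the other group, whose spread alone sets the p-values. Without IRF4-RV replicate 2, the library with the high stromal sum, they were 1.94 for Parp14, 1.56 for Parp9, 1.33 for Parp10, 1.42 for Dtx3l, 0.90 for Parp11 and 0.60 for Zc3hav1. Parp1 changed sign with the library left out, from -0.20 to 0.08, and Parp2 ran from -0.15 to -0.05.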

How the data were processed

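The authors deposited a table of raw read counts per gene for 4 libraries. Total RNA was purified with an RNeasy kit per the labels (the methods name Trizol, for primary tumors and sorted cells). Libraries were made with a NEBNext Ultra kit (Ultra II in the labels), and, per the methods, reads were aligned with STAR 2.4.0j to GRCm38 and counted with featureCounts. Multimapping and strand settings are not given in the sources used here. Of 55359 gene identifiers, 52083 were matched to GENCODE M21 symbols, and the 3276 others held at most 0.486% of the counts of a library.

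Genes were filtered with filterByExpr, scaled by TMM and tested with edgeR 4.0.16 (R 4.3.3), IRF4-RV against EV-RV without covariates, with Benjamini-Hochberg adjustment over all 14637 genes tested and the study's FDR of 0.1, where the study used DESeq2. CPM are TMM-scaled, and SEs were derived from the log2 fold change and its F statistic. Scripts were tested on 5 simulated data sets in which 200 of 14637 genes changed. At an FDR of 0.1, 15.3% of the calls were false on average. The fit found 74.1% of log2 changes of 1 and 93.3% of those of 2. More genes were called in the real data, so the false share there may differ. Calls near an adjusted p of 0.1 may thus be less sure than that threshold states. Nothing says that the libraries came from separate cultures, so that p-values measure the spread between these libraries, which may be technical. Replicates differed by more than sampling noise (chi-square per degree of freedom 15.2 and 14.3).

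The members and the gene lists were chosen with earlier results of these data known. Named were all members, Irf4, Stat2, Irf9, Irf1, Irf7, Hpf1, Xrcc1, Lig3 and Parg, all genes of lists of up to 5, otherwise up to 4 genes a list that passed without overlap of groups, by size of change, and the genes beside the chromosome 16 group. Markers, Plec, which shares exon with a member, and Irf8, Ddx60 and Tnks were named besides, and 1 gene that the rule also names is not reported here. Alternatives were DESeq2 1.42.0, its size factors, library totals, 2 other filters, an FDR of 0.05, a replicate block, and leaving out each library.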

Additional observations from a re-analysis of the deposited data

How the results depend on the processing

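Over all alternatives the number of members that passed was 6 or 7 and the number of all genes 3347 to 6394. Of the members' log2 fold changes, 86 kept direction and call, 3 lost the call (all of Parp12) and 1 turned. The fit with the replicate number as a block called 6394 genes and the same count of 7 members. Under it Hpf1, Kpna1, Dtx3 and Ddx60 passed besides (adjusted p = 0.0117, 0.0385, 0.0148 and 0.0671). In the simulated data, 23.9% of the calls of this block fit were false on average. Deviations of same-numbered libraries correlated at r = 0.29 over genes, but the labels give the numbers no shared batch and there are only 2 pairs, too few for the data to show a pairing, so the numbers were not used as one. Among ADP-ribose removal genes, 1 passed with DESeq2, with all genes of at least 1 count and at an FDR of 0.05, and 0 to 1 when a library was left out. Single-strand break repair genes that passed numbered 1 to 4 with a library left out, and other PARP family genes 3 to 5. Log2 fold changes that changed sign with a library left out ran from -0.196 to 0.0758 for Parp1, -0.0283 to 0.0680 for Xrcc1, -0.221 to 0.0445 for Parg and -0.155 to 0.0290 for N4bp1, and Xrcc1 was at -0.0673 with library totals. None of these passed the threshold. With lengths of the longest transcript, 7 of 10 members kept their rank of level in the EV-RV group. The IRF4-RV order was not compared in this way. With AAANNGAAA as ISRE core, which 10.6% of windows hold, 1 member matched as before. The cause was not tested for any of these changes. Depth limits Parp8, at 3 to 4 counts.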

Other observations

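NAD+ is the substrate of the PARPs, and of 12 genes of NAD+ turnover 9 were tested, 3 rose and 1 fell, with a median log2 fold change of 0.31. The share of tested genes that passed was 44.4%, beside 29.7% of all genes. Cd38, an ectoenzyme that consumes NAD+, went from 26 and 10 counts with EV-RV to 320 and 280 counts with IRF4-RV (log2 3.94, edgeR adjusted p = 1.53e-04), and its log2 fold change was 4.73 without EV-RV replicate 1 and 3.45 without EV-RV replicate 2. Nampt, the rate-limiting enzyme of NAD+ salvage, went from 85.8 and 91.2 CPM to 166.5 and 179.6 CPM, a 1.96-fold rise (edgeR adjusted p = 1.51e-04). Bst1, a relative of CD38, rose by 0.33 on the log2 scale (edgeR adjusted p = 0.0262), a call lost without IRF4-RV replicate 1 (edgeR adjusted p = 0.216). Nmnat3, which makes NAD+ in mitochondria, fell from 13.6 and 14.5 CPM to 9.83 and 9.97 CPM (log2 -0.50, edgeR adjusted p = 0.0150). The list was chosen with earlier results of these data known, and no set test was run.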
